A study of Mus musculus with 18 samples.

Results

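Esrrb, the oestrogen-related receptor beta, was followed across 18 one-colour microarrays of mouse embryonic stem cells. It was chosen as the gene that the cell lines' genotype names, and its probes were taken as all non-control probes whose RefSeq transcript name belongs to Esrrb. That rule gave 1 probe of the 56605 on the array, and 1 gene of the 22911 symbols to which 32994 probes could be matched. The probe, A_55_P1954302, is named for transcript NM_001159500 and was printed as 1 spot per array. The reference lists 5 Esrrb transcripts, and only this one had a probe matched by name. A further 7284 probes carried Ensembl transcript names and were not matched to a gene here. With 1 probe, no second Esrrb probe could be set against it.

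All cells were of strain 129SV and, per the labels, an Esrrb knockout that expressed Raf-ErT2, a fusion of the kinase Raf that 4-hydroxytamoxifen (4OHT) switches on. Arrays labelled Rescue came from cells with an added Esrrb transgene, and arrays labelled KO from cells with an empty vector as control. The design text calls 1 of the lines WT. The transgene's promoter, the part of Esrrb that was deleted and whether a line was a single clone are not given in the sources used here. Cells grew in serum with 1x LIF and 2 µM Chir99021, a GSK3 inhibitor, and then, for 24 h up to the treatment, without Chir99021 but with 250 nM of the FGF receptor inhibitor PD173074. Arrays titled 0h were left untreated, those titled 8h had 250 nM 4OHT for 8 h, and those titled 8h2h had the same followed by 2 h of a Mek inhibitor. Each line had 3 arrays at each of the 3 titles, lettered a, b and c, and each letter was 1 slide with all 6 groups. The labels do not state whether a, b and c were different cultures, and the p values therefore cover only array-to-array spread. A group occupied 1 fixed place on all slides, hence group and place cannot be told apart.

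Esrrb is an orphan nuclear receptor: it binds DNA at an extended hormone-receptor half-site and needs no known natural ligand to activate transcription. In mouse embryonic stem cells it belongs to the naive pluripotency network with Nanog, Klf4, Tfcp2l1 and their partners, and GSK3 inhibition raises it by relieving repression by Tcf7l1. ERK signalling drives cells out of the naive state. Outside the embryo proper, Esrrb is also needed by trophoblast stem cells.

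The RefSeq promoter table (build GRCm38.p6) holds 2 start windows for Esrrb, each of 300 bases, from 250 before to 50 after the start. They are shown because they are where the gene's own transcripts begin, as distinct from a transgene, and because the signal described below moved with the titles. Both lie on the plus strand, at chr12:86360867-86361166 (60.0% G and C) and chr12:86421394-86421693 (55.3% G and C). Capitals mark a match to a searched motif.
Esrrb window 1: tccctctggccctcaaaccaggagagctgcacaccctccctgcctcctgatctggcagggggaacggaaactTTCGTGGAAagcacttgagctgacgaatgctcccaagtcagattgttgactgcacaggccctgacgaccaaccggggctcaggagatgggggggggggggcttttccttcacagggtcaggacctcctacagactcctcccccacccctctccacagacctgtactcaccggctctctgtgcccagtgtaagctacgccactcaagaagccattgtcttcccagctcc
Esrrb window 2: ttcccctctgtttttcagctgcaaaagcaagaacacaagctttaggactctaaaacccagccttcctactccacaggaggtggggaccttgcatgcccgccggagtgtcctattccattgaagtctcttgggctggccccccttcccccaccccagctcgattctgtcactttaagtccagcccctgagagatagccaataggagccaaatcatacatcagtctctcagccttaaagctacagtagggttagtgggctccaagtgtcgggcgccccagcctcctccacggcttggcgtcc
The letters searched, on both strands, were AAGGTCA for the half-site that Esrrb itself binds, CTTTGAT for TCF and LEF factors, TTCNNNGAA for STAT factors and CCGGAAG for ETS factors. Of 32851 windows in the table, 4.72%, 3.73%, 8.30% and 8.86% hold them, in that order. Window 1 had a single match, TTCGTGGAA, to the STAT letters, whose first base lies 178 bases before the start. Those letters are their own reverse complement, so any match to them reads on both strands and counts as 1. Window 2 had none of the 4. Such a match is a description of letters, and the array gives no measure of binding. The array files name build mm9 in their headers, and the position and sequence of the probe were not used here.

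The arrays differed in background. On the Rescue-labelled arrays 53.5% to 63.8% of probes were well above background. The share was 46.6% to 56.4% on the KO-labelled arrays other than slide b's array titled 8h2h. On that array it was 88.6%. The negative controls there had a median of 42, where all others lay at 24.5 to 28. That array was kept, and values without it are named as such below. The 75th percentile of signal, to which each array was scaled, ran from 199.6 to 520.0. At 0h the lowest scaled log2 signal marked well above background was -4.19 to -3.42 on KO-labelled arrays. On Rescue-labelled arrays it was -5.08 to -4.95, so differences of dim genes between the lines meet unequal floors. For 12 arrays the source name contradicts the title, the inhibitor being named in the source of arrays titled 8h and left out of that of arrays titled 8h2h. Groups here follow the titles. Of 5 fast ERK outputs (Dusp6, Spry2, Spry4, Egr1, Etv4), 5 were higher on the arrays titled 8h than at 0h in each line, and 4 were lower on those titled 8h2h than on those titled 8h in each line. Of the arrays' 34061 kept probes, 8.87% and 8.48% were called higher at 8h in the lines labelled Rescue and KO, and 0.710% and 1.88% were called lower at 8h2h than at 8h.

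The Esrrb spot was bright in every sample, the KO-labelled ones included. It was well above background on 18 of 18 arrays and saturated on 0, and its median signal stood 58.9-fold to 819-fold over the local background. Neither the spot's pixels nor its signal were marked as outliers on any array, while its local background was marked as an outlier on 9. The scanner software's own error on the processed signal was 10% of the signal on each array. This signal is an intensity with the background removed and no scaling between arrays.

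Among the Rescue-labelled arrays at 0h, the processed signal of Esrrb was 9395 on slide a, 8570 on slide b and 8689 on slide c. Those titled 8h gave 2644, 1668 and 1797, in the same order. Those titled 8h2h gave 2148, 1310 and 1811. The arrays after 0h thus lay well below the 0h arrays, and the groups titled 8h and 8h2h overlapped. Among the KO-labelled arrays, 0h gave 18834, 12935 and 14267. Those titled 8h gave 13058, 5699 and 6276, and those titled 8h2h gave 12988, 6431 and 9492. Slide a was the highest of the 3 in each of the 6 groups. The KO-labelled arrays after 0h overlapped the Rescue-labelled arrays at 0h, and all 9 KO-labelled arrays exceeded the 6 Rescue-labelled arrays titled 8h or 8h2h.

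On the log2 scale, after each array's 75th percentile was subtracted, the Rescue-labelled arrays at 0h read 4.71, 4.79 and 5.44 (mean 4.98 ± 0.40, SD, n = 3). Those titled 8h read 2.74, 2.34 and 2.42 (mean 2.50 ± 0.21), and those titled 8h2h read 2.36, 2.12 and 2.16 (mean 2.21 ± 0.13). The KO-labelled arrays read 5.66, 5.32 and 5.86 at 0h (mean 5.61 ± 0.27). They read 4.69, 4.11 and 4.24 when titled 8h (mean 4.35 ± 0.31) and 4.91, 3.63 and 4.60 when titled 8h2h (mean 4.38 ± 0.67). From high to low the groups ran KO 0h, Rescue 0h, KO 8h2h, KO 8h, Rescue 8h and Rescue 8h2h. Neighbours in that order were close: the first pair overlapped, as did Rescue 0h with KO 8h2h, KO 8h2h with KO 8h, and Rescue 8h with Rescue 8h2h. KO 8h and Rescue 8h did not overlap, with 1.37 between the lowest of the one and the highest of the other. The widest spread was in the KO-labelled group titled 8h2h, where the high-background array read 3.63.

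**Figure D1:**
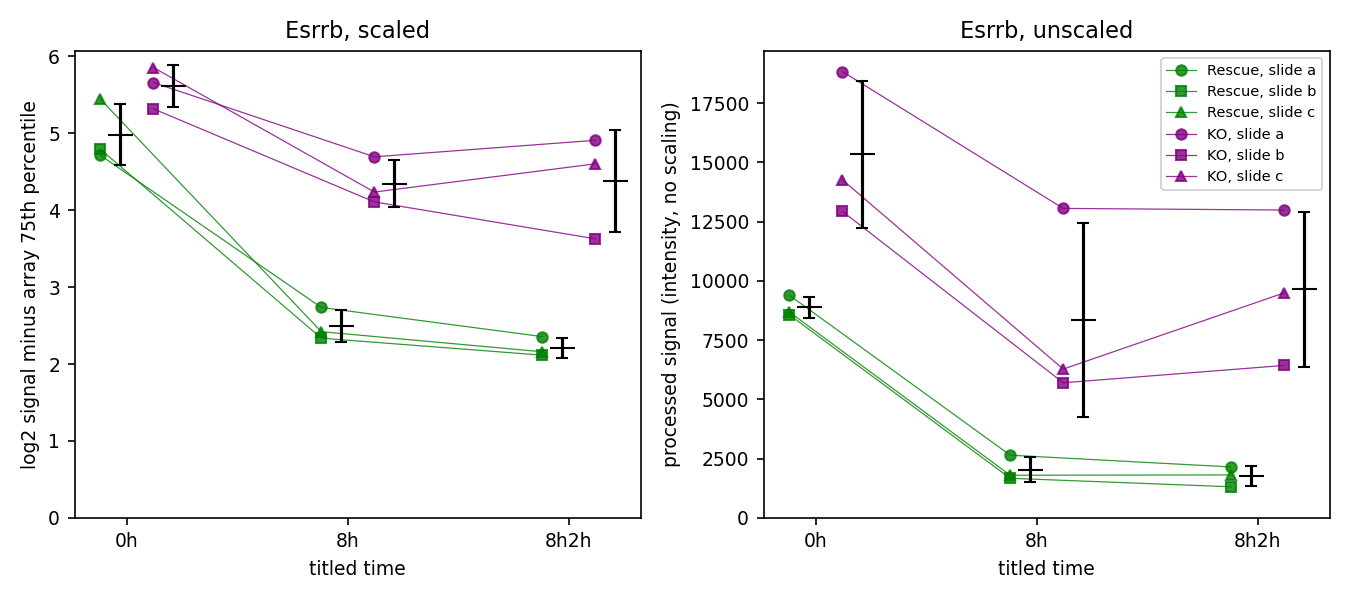
Esrrb on each of the 18 arrays, as log2 signal minus the array's 75th percentile (left) and as the unscaled processed signal (right), against the titled time. Points are arrays, shapes are slides, thin lines join arrays of 1 slide and line, and black bars are the mean ± SD of 3 arrays. Rescue-labelled arrays fall from a mean of 4.98 to 2.50 and 2.21 on the left, and KO-labelled arrays from 5.61 to 4.35 and 4.38.

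The first comparison asked whether the lines differed in Esrrb, which the labels say only the Rescue line carries intact. Within each of the 9 pairs matched by slide and title, the array labelled KO had the higher signal, which goes against the labels, and every direction between the lines below rests on the labels as given. The probe's place relative to the deletion and the transgene is not known here, so the signal does not check the labels. In such bulk samples, fewer cells that express Esrrb and less Esrrb RNA per cell cannot be told apart. At 0h the KO-labelled arrays were higher by 0.63 ± 0.29 (SE, log2; 1.55-fold), which did not pass the test (adjusted p = 0.218, unadjusted p = 0.0489), and the groups overlapped. The difference was 0.95, 0.53 and 0.41 on slides a, b and c. With the replicate block, which fits the slide, its adjusted p was 0.115. It passed with normexp background correction alone, at 0.80 and an adjusted p of 0.0482.

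After treatment Esrrb differed clearly between the lines. On the arrays titled 8h it was 3.60-fold higher on those labelled KO (1.85 ± 0.29, adjusted p = 7.10e-04), by 1.96, 1.77 and 1.82 on the slides. On those titled 8h2h it was 4.50-fold higher (2.17 ± 0.29, adjusted p = 2.12e-04), by 2.55, 1.51 and 2.44. The smallest of these, 1.51, came from the slide with the high-background array, and without that array the difference was 2.55. Neither pair of groups overlapped. In these comparisons 10.4% of kept probes were called at 0h, 12.8% at 8h and 13.9% at 8h2h, and 2.81% and 1.58% of kept probes changed by more than Esrrb at 8h and 8h2h.

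The comparison of 8h with 0h asked what followed the switching on of Raf. Per the labels, arrays after 0h also came later after the withdrawal of the GSK3 inhibitor. No untreated arrays matched to them in time were among the samples. Time since that withdrawal and the switching on of Raf therefore could not be told apart. All arrays after 0h had the drug that switches Raf on, those at 0h had none, and no cells lacked the Raf fusion. Any effect of that drug on Esrrb or other genes apart from Raf was thus not tested. In the Rescue-labelled line Esrrb fell 5.60-fold, to 17.8% of its 0h level (log2 -2.49 ± 0.29, SE; adjusted p = 2.75e-05). By slide the change was -1.98, -2.46 and -3.02, so slide c showed the largest fall. Its 0h array had the lowest 75th percentile of all, 199.6, and on the unscaled signal the 3 slides kept 28.1%, 19.5% and 20.7% of the 0h level, against 25.4%, 18.2% and 12.3% after scaling. In the KO-labelled line Esrrb fell 2.40-fold, to 41.6% (log2 -1.27 ± 0.29, adjusted p = 0.00764), by -0.97, -1.21 and -1.62 on the slides. Without scaling this fall was -0.97 ± 0.34 and did not pass the test (adjusted p = 0.103). Of the kept probes 18.2% were called in the Rescue-labelled line and 15.7% in the KO-labelled line, 9.35% and 7.18% of them as lower. Only 0.458% of kept probes had a lower value than Esrrb in the Rescue-labelled line, against 3.02% in the KO-labelled line.

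From 8h to 8h2h, with the Mek inhibitor added, no time-matched arrays without that inhibitor were among the samples. Its effect and the added time therefore could not be told apart. Esrrb was not called in either line in this comparison. It differed by -0.29 ± 0.29 (SE, log2; adjusted p = 1.00) in the Rescue-labelled line, with a 95% interval from -0.91 to 0.34. In the KO-labelled line it differed by 0.03 ± 0.29 (adjusted p = 0.954), with an interval from -0.59 to 0.66. By slide, a to c, the values were -0.38, -0.22 and -0.26 in the first line and 0.21, -0.48 and 0.37 in the second, where slide b holds the high-background array. Leaving it out gave a KO-labelled difference of 0.41, again short of the test. In these comparisons 1.33% and 3.96% of kept probes were called. The intervals leave room for a rise of up to 0.34 and 0.66, that is 1.26-fold and 1.58-fold.

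Against 0h, the Rescue-labelled arrays titled 8h2h were 6.84-fold lower in Esrrb (log2 -2.77 ± 0.29, SE; adjusted p = 1.74e-05), and 11.8% of kept probes were called. On slides a, b and c they kept 19.5%, 15.6% and 10.3% of the 0h level. In the KO-labelled line the fall was 2.35-fold (log2 -1.23 ± 0.29, adjusted p = 0.0109), with 59.4%, 31.0% and 42.0% kept, and 14.6% of kept probes were called. That call ended without scaling (-0.71, adjusted p = 0.160), with only the arrays compared (adjusted p = 0.0873) and without replicate c of the KO-labelled arrays at 0h (-1.11, adjusted p = 0.0502). Leaving out the high-background array made it -0.86.

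Esrrb kept more of its signal in the KO-labelled line on every slide, and the test of that difference did not pass over all probes. From 0h to 8h the change was higher by 1.22 ± 0.41 in the KO-labelled line (SE, log2; 95% interval 0.34 to 2.10; adjusted p = 0.279, unadjusted p = 0.0102), by 1.01, 1.25 and 1.40 on the slides. From 0h to 8h2h it was higher by 1.54 ± 0.41 (interval 0.66 to 2.43; adjusted p = 0.122, unadjusted p = 0.00215), by 1.61, 0.99 and 2.03. These adjusted values moved across the threshold with the high-background array: without it they were 0.0485 (difference 1.22) and 0.00855 (difference 1.92). With quantile normalization the second was 1.75 (adjusted p = 0.0276), and with the percentile taken over kept probes 1.67 (adjusted p = 0.0362). With the replicate block the second had an adjusted p of 0.0530. Of the kept probes, 0.863% and 0.693% were called in these tests, and 0.0440% in that from 8h to 8h2h, where Esrrb gave 0.32 ± 0.41 (adjusted p = 0.941). That last value was 0.70 without the high-background array and 0.056 without replicate a of the same group, and neither passed.

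**Figure D2:**
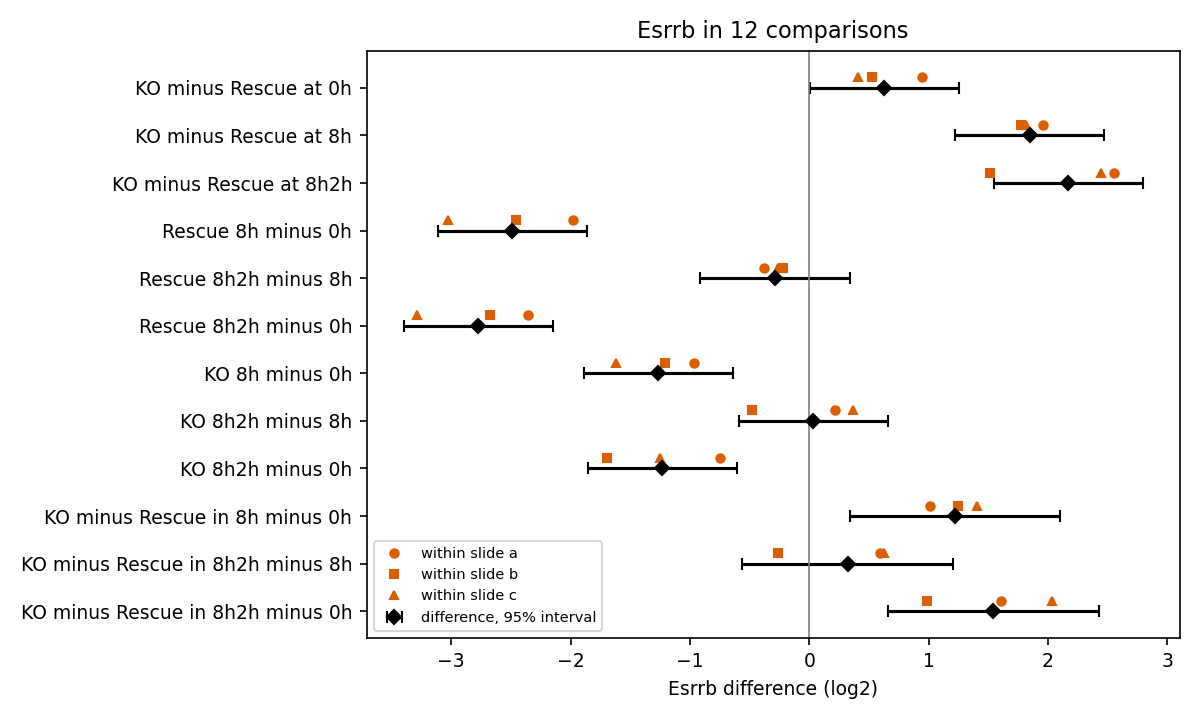
Esrrb in the 12 comparisons, as the log2 difference with its 95% interval (black) and the difference within each slide (orange shapes); the vertical line is 0. The last 3 rows are the differences between the lines in the change with titled time. The slides agree in sign in every row except the change from 8h to 8h2h in the KO-labelled line and its difference between the lines.

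The genes of Esrrb's network were set beside it: 17 genes with which it shares enhancers or that are reported as its targets, all 17 of them tested. Most had more signal on the KO-labelled arrays, as Esrrb did. At 0h 13 were higher and 1 was lower (median log2 difference 1.22, against 0.01 over all kept probes, of which 4.05% were called higher and 6.38% lower). On the arrays titled 8h the counts were again 13 and 1 (median 1.52, against 0.04; 5.89% and 6.93% of probes). On those titled 8h2h they were 14 and 1 (median 1.24, against 0.05; 6.42% and 7.45%). Without scaling 10, 10 and 13 were higher and 0 lower. In that fit 571, 719 and 1332 of 34061 kept probes were called higher, and 599, 745 and 497 lower. Without the high-background array 15, 14 and 16 were higher and 1 lower. A fit without it called 6491 probes at 0h in either direction, against 3554 with it.

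Jam2, a junction adhesion molecule, was the furthest above in each comparison of the lines, 8.03-fold at 0h (adjusted p = 1.67e-04), and by 3.62 ± 0.38 (SE, log2) at 8h and 3.54 at 8h2h. Nr0b1, also called Dax1, a corepressor that binds Esrrb, was higher by 1.99 ± 0.24, 3.27 and 3.21. Tfcp2l1, a factor downstream of LIF, was higher by 2.02 ± 0.38, 2.80 and 2.93. Tbx3 (2.42 ± 0.38) and the receptor tyrosine kinase gene Kit (2.72 ± 0.34) were among the furthest above at 0h. Dppa3, a maternal factor that protects DNA methylation in the zygote, was the 1 gene lower, by -3.41 ± 0.89 at 0h (adjusted p = 0.0246), -2.93 at 8h and -2.96 at 8h2h. Its KO-labelled arrays spread widely (0.48 ± 1.48, SD, n = 3, at 0h), and its 3 calls ended without scaling (adjusted p = 0.0868, 0.136 and 0.131).

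Most of these genes fell with Esrrb from 0h to 8h. In the Rescue-labelled line the lower calls numbered 10 of 17 and the higher calls 2 (median -1.55, against -0.02 over all kept probes, of which 9.35% were called lower and 8.87% higher). Nanog, the homeodomain factor that activates Esrrb, fell by 4.72 ± 0.36 on the log2 scale, and Klf2, a Krüppel-like factor, by 2.33 ± 0.22. The KO-labelled line had 10 lower and 3 higher calls (median -1.56, against 0.01; 7.18% and 8.48% of probes), among them Nanog at -3.57, Tbx3 at -2.50 and Klf4 at -2.21. Without scaling, 8 were lower in the Rescue-labelled line and 5 in the KO-labelled line. In that fit 487 and 459 of 34061 kept probes were called lower. Gbx2, a homeobox target of LIF signalling, rose, by 1.15 ± 0.24 in the Rescue-labelled line and 2.74 in the KO-labelled line. Klf5 rose too, by 0.93 ± 0.21 and 0.74. Against Esrrb's 5.60-fold and 2.40-fold, Nanog's falls were 26.4-fold and 11.9-fold.

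From 8h to 8h2h 2 of the 17 were called higher and 2 lower in each line, and Esrrb did not pass the test. Klf2 rose 3.66-fold in the Rescue-labelled line and 3.74-fold in the KO-labelled line, and Klf4 rose 2.37-fold and 2.97-fold. Klf4 passed only narrowly in the first (adjusted p = 0.0498), and not when scaled to the median of kept probes (adjusted p = 0.136) or unscaled (0.426). Gbx2 fell 6.48-fold and 10.5-fold, and Nr5a2, an orphan receptor that binds near Pou5f1, changed by -1.06 ± 0.19 and -0.90, calls that ended without scaling (adjusted p = 0.636 and 0.445). The other 13 of 17 were not called in either line (medians of the 17 -0.03 and -0.01, against -0.02 over all kept probes in both). Of all kept probes 0.619% and 2.09% were called higher, and 0.710% and 1.88% lower. Nanog gave 1.40 ± 0.36 (adjusted p = 0.0888) and 1.11 (adjusted p = 0.112). Without the high-background array 4 and 6 genes were higher, Nanog among them (adjusted p = 0.0296 and 0.0339), and 2 lower in each line.

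Against 0h, 10 of the 17 were lower and 0 higher on the Rescue-labelled arrays titled 8h2h, where 5.59% of kept probes were called lower and 6.26% higher. On the KO-labelled ones 8 were lower and 1 higher, against 6.76% and 7.87%. Without scaling the lower counts were 5 and 2, where 174 and 109 of 34061 kept probes were called lower. Without the high-background array the lower counts were 12 and 5. Nanog, Jam2 and Tcl1 were the furthest below in both lines, at -3.32, -2.81 and -2.10 in the Rescue-labelled line and -2.46, -2.28 and -1.58 in the KO-labelled line, where the call of Tcl1 ended without scaling (adjusted p = 0.0813). Tcl1, an AKT coactivator and reported target of Esrrb, tracked it closely. The lines differed in the change from 0h to 8h for 2 of the 17, Gbx2 (1.59 ± 0.34 higher in the KO-labelled line, adjusted p = 0.0428) and Kit (-2.43 ± 0.48, adjusted p = 0.0274), where 0.420% and 0.443% of kept probes were called higher and lower. For the changes from 8h to 8h2h and from 0h to 8h2h, limma called 0 of the 17 between the lines, and 0 and 5 had an unadjusted p below 0.05. Without the high-background array 4 were higher and 1 lower in the first of the 3 tests and 3 higher in the last. Without scaling 0 were called in each, where 49, 13 and 42 of 34061 kept probes were called.

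**Figure D3:**
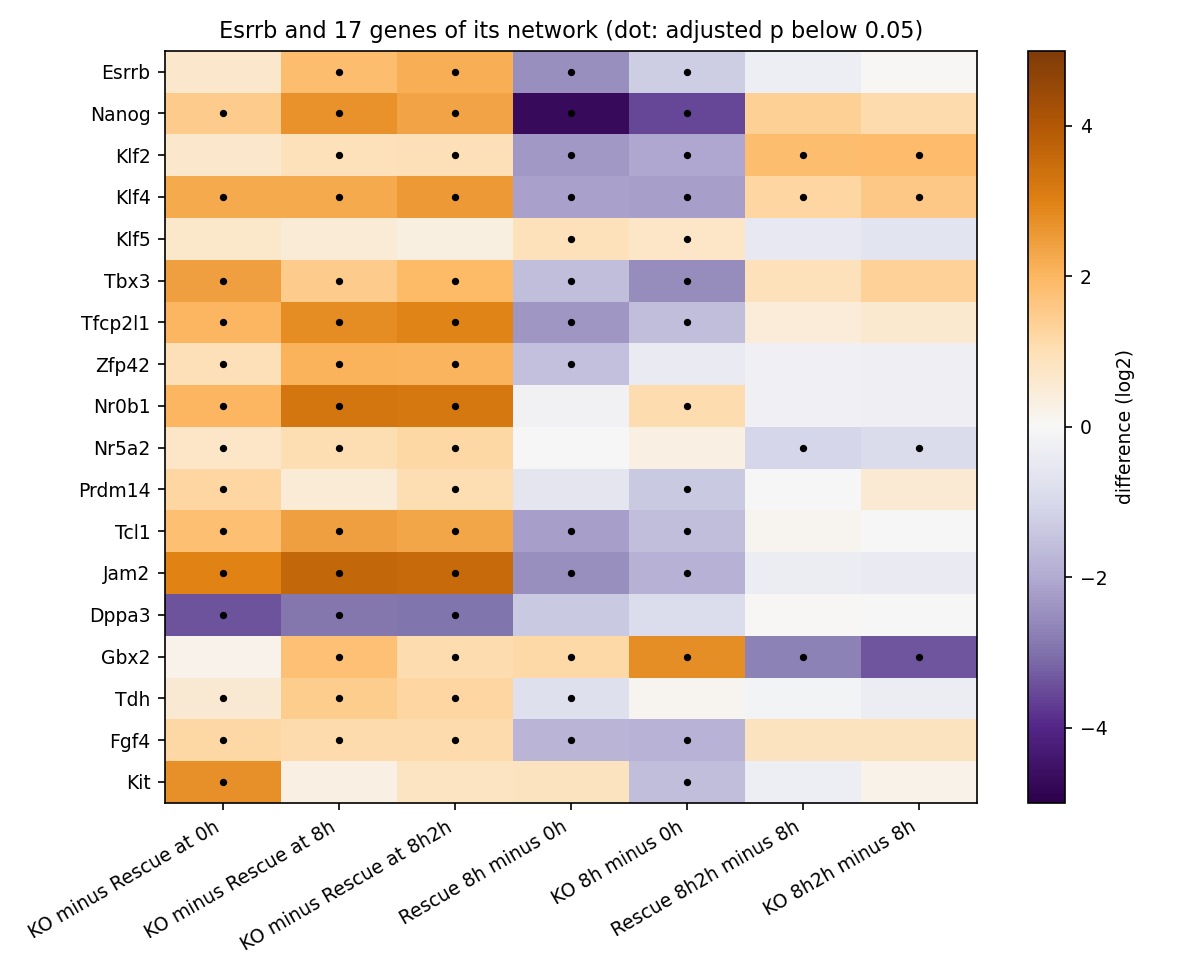
Esrrb (top row) and the 17 genes of its network in 7 comparisons, coloured by the log2 difference (orange higher, purple lower); a dot marks an adjusted p below 0.05. Of the 17, 13 at 0h, 13 at 8h and 14 at 8h2h are called higher on the KO-labelled arrays, and Dppa3 is lower in the 3 of them.

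Among 12 partners and coregulators of Esrrb, 10 were tested, Ppargc1a and Nr0b2 being too dim. Nanog and Nr0b1, already named above, led the differences between the lines. At 0h 4 were higher and 0 lower on the KO-labelled arrays, which added Pou5f1 (0.61 ± 0.18) and Sox2 (0.60 ± 0.18), against 4.05% and 6.38% of kept probes called higher and lower. At 8h 3 were higher and 1 lower: the coactivator Ppargc1b was higher by 1.13 ± 0.24, and Nrip1, a nuclear receptor corepressor, was lower (-0.88 ± 0.16), a call that ended without scaling (adjusted p = 0.326). Of all kept probes 5.89% and 6.93% were called so. At 8h2h 4 were higher and 0 lower, against 6.42% and 7.45%. Without the high-background array 5 were higher and 1 lower there, with Pou5f1 (adjusted p = 0.0103) and Nrip1 (adjusted p = 0.0183) called, and 4 and 1 at 8h. Ncoa3, the coactivator through which Esrrb acts in stem cells, differed between the lines by -0.20 ± 0.16, 0.39 and 0.21, none of which passed the test. From 0h to 8h2h Ncoa3 fell by 0.69 in the Rescue-labelled line (adjusted p = 0.00874), and Sox2 fell by 0.89 and 0.73 in the lines. These 3 calls ended without scaling, at -0.28 for Ncoa3 (adjusted p = 0.461) and -0.49 and -0.21 for Sox2 (adjusted p = 0.321 and 0.547). Without scaling the count higher at 0h was 1, where 571 of 34061 kept probes were called higher.

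The GSK3, beta-catenin and TCF genes, which act upstream of Esrrb, gave 8 tested members of 8. Tcf7l1, the repressor that GSK3 inhibition removes from Esrrb, fell from 0h to 8h by 1.12 ± 0.23 in the Rescue-labelled line (SE, log2; adjusted p = 0.00279) and by 1.47 in the KO-labelled line (adjusted p = 3.60e-04), so both it and Esrrb fell. Both calls ended without scaling (adjusted p = 0.254 and 0.0816). Tcf7 rose by 0.95 ± 0.21 and 1.43 and Tcf7l2 by 1.50 ± 0.23 in the Rescue-labelled line, while Lef1 rose by 2.59 ± 0.51 in the KO-labelled line from a 0h level that was lower there (-1.87 ± 0.51, adjusted p = 0.0316; 0.146 without scaling). Axin2, a direct target of beta-catenin, gave 0.56 ± 0.22 and 0.62 at 8h, neither called (adjusted p = 0.0938 and 0.0726). Both passed without the high-background array (adjusted p = 0.0258 and 0.0176) and with the percentile taken over kept probes (0.0358 and 0.0298). Between the lines 1 of the 8 was lower at 0h, 1 higher and 1 lower at 8h, and 1 lower at 8h2h, where 6.38%, 5.89% and 6.93%, and 7.45% of kept probes were called so. These were Lef1 at 0h, Tcf7 and Gsk3b at 8h and Gsk3b at 8h2h. Without scaling 0 of the 8 were called in the 3 comparisons, against 1170, 1464 and 1829 of 34061 kept probes. Without the high-background array Gsk3b was not called at 8h2h (adjusted p = 0.0536), while Tcf7 was higher there (adjusted p = 0.00416) and Tcf7l2 at 0h (adjusted p = 0.0110).

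None of the other receptors of the family was called in limma's tests. Esrra, another oestrogen-related receptor, averaged 2.74 ± 0.12 (SD, n = 3) on the Rescue-labelled arrays at 0h and 2.58 ± 0.07 on the KO-labelled ones. Its differences in the 9 comparisons of groups lay between -0.21 and 0.18. Of Esrra, Esr1 and Esr2, 0 were called in any of the 12 comparisons, in which 0.0440% to 18.2% of kept probes were called. With 3 genes, a count of 0 is near those shares. Only 1 of them, Esr1 between the lines at 8h, had an unadjusted p below 0.05. That difference was -1.46, and it passed without the high-background array (adjusted p = 0.0392). Esr1 lay near background and was read above it on only 1 or 2 of 3 KO-labelled arrays in each group, and Esrrg was too dim to be tested.

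The genes beside Esrrb on its chromosome were read as well: of the 3 nearest on each side in the RefSeq order, 5 were tested. Angel1, the next but one after Esrrb, was higher on the KO-labelled arrays by 0.60 ± 0.18 (SE, log2; adjusted p = 0.0379) at 8h and 0.85 (adjusted p = 0.00500) at 8h2h. It fell from 0h to 8h in both lines (-0.77 and -0.58, adjusted p = 0.00630 and 0.0369), and its r with Esrrb over the 18 arrays was 0.870. Ift43, a gene of transport within cilia, lay on the other side and was lower on the KO-labelled arrays at 0h, 8h and 8h2h (-0.62 ± 0.17, -0.57 and -0.70). Tgfb3, Gpatch2l and Vash1 were not called in these 5 tests. Of all kept probes, 10.4%, 12.8% and 13.9% were called between the lines at 0h, 8h and 8h2h. From 0h to 8h the shares were 18.2% and 15.7% in the lines labelled Rescue and KO. With so few genes read, the calls describe single genes, and a link to their place was not tested.

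Because Esrrb is also active in trophoblast, markers of other cell types were read beside it. All 8 stem cell markers were well above background in each of the 6 groups, but their level was not even. At 0h 4 were higher and 0 lower on the KO-labelled arrays, where 4.05% and 6.38% of kept probes were called so. Their mean level there was 5.37 to 5.60, against 5.02 to 5.08 on the Rescue-labelled arrays. The 0h calls of Nanog, Pou5f1 and Sox2 ended without scaling (adjusted p = 0.101, 0.238 and 0.171). At 8h 2 were higher and 0 lower, against 5.89% and 6.93%, and at 8h2h 3 and 0, against 6.42% and 7.45%. Of 9 trophoblast markers tested, 7 were lower and 0 higher on the KO-labelled arrays at 0h, where their mean level was -1.37 to -0.55 against 1.70 to 1.86 on the Rescue-labelled ones, and 6.38% of kept probes were called lower. At 8h 6 were lower and 1 higher, against 6.93% and 5.89% of kept probes, and at 8h2h 7 and 1, against 7.45% and 6.42%. Without the high-background array the 8h2h counts were 6 and 0, as Tead4 and Eomes were no longer called (adjusted p = 0.0628 and 0.0613). Without scaling 5 were lower and 0 higher at 8h and at 8h2h. In that fit 745 and 497 of 34061 kept probes were called lower, and 719 and 1332 higher. Cdx2, Hand1 and Plac1 were well above background on none of the KO-labelled arrays at 0h. From 0h to 8h 5 of the 9 were higher and 0 lower in the Rescue-labelled line, where 8.87% and 9.35% of kept probes were called so. In the KO-labelled line 6 were higher and 1 lower, against 8.48% and 7.18%. The lower one was Tfap2c (-1.04 ± 0.33, adjusted p = 0.0443), which was not called without scaling (adjusted p = 0.294), and Plac1 was called in neither line (adjusted p = 0.297 and 0.409). Plac1 passed as higher in the Rescue-labelled line without the high-background array (1.25, adjusted p = 0.0415). In the KO-labelled line it passed with quantile normalization (1.54, adjusted p = 0.0249). The mean of 6 primitive endoderm markers was -4.08 to -2.62 on the KO-labelled arrays at 0h and -2.45 to -2.01 on the Rescue-labelled ones, and that of 6 fibroblast markers was -3.20 to -2.84 and -2.95 to -2.60. Only 3 and 2 of them were well above background on all KO-labelled arrays at 0h, so these means partly rest on values near background. Between the lines at 0h, 2 endoderm markers were lower and 0 higher, against 6.38% and 4.05% of kept probes. Of the fibroblast markers 0 were called. The part of these markers in the Esrrb differences was not tested.

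Over all 18 arrays, each gene's scaled signal was correlated with that of Esrrb (Pearson's r, 16021 genes, 1 probe each). The points share slides, groups and the scaling, so these values describe likeness of pattern and carry no test. The most alike was Tenm4, a teneurin adhesion protein, at r = 0.989 (0.991 over the 9 Rescue-labelled and 0.956 over the 9 KO-labelled arrays). It was followed by Gli2, a transcription factor of Hedgehog signalling, at 0.975, Hsd17b14, a steroid dehydrogenase, at 0.974, Zfp934 at 0.970, Phf11d at 0.969, Mov10, an RNA helicase, and Pcsk1n, both at 0.966, and the melanosome gene Pmel at 0.965. Without scaling the r of these 8 ran from 0.864 to 0.980. Gli2 swung the furthest, from a mean of 0.87 at KO 0h to -4.21 at Rescue 8h, a span of 5.53 over single arrays.

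Most opposite to Esrrb were Nefl, a neurofilament subunit (r = -0.972), Slco1a5, an organic anion transporter (-0.966), Crym, a thyroid hormone binding protein (-0.960), and Scin, an actin-severing protein (-0.959). Slco1a5 and Scin were well above background on none of the KO-labelled arrays at 0h, so their lowest values there are only bounds. In all 146 genes, or 0.911%, had r over 0.9 and 91 had r under -0.9, while the median r of all genes was 0.01. Of the 17 network genes 13 had r over 0.5, as did 18.8% of all genes. The closest of them were Tcl1 (0.955), Zfp42, a naive marker also called Rex1 (0.946), Jam2 (0.924), Nanog and Tfcp2l1 (both 0.916). Klf5 (-0.01) and Dppa3 (-0.33) had the lowest r over the 18 arrays, which pool lines of unequal level. Within lines the order differed. Over the 9 Rescue-labelled arrays Dppa3 had r = 0.721, and Klf5 (-0.774) and Kit (-0.632) were lowest. Over the 9 KO-labelled arrays Nr0b1 (-0.406) and Gbx2 (-0.331) were lowest, and Kit had r = 0.939.

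**Figure D4:**
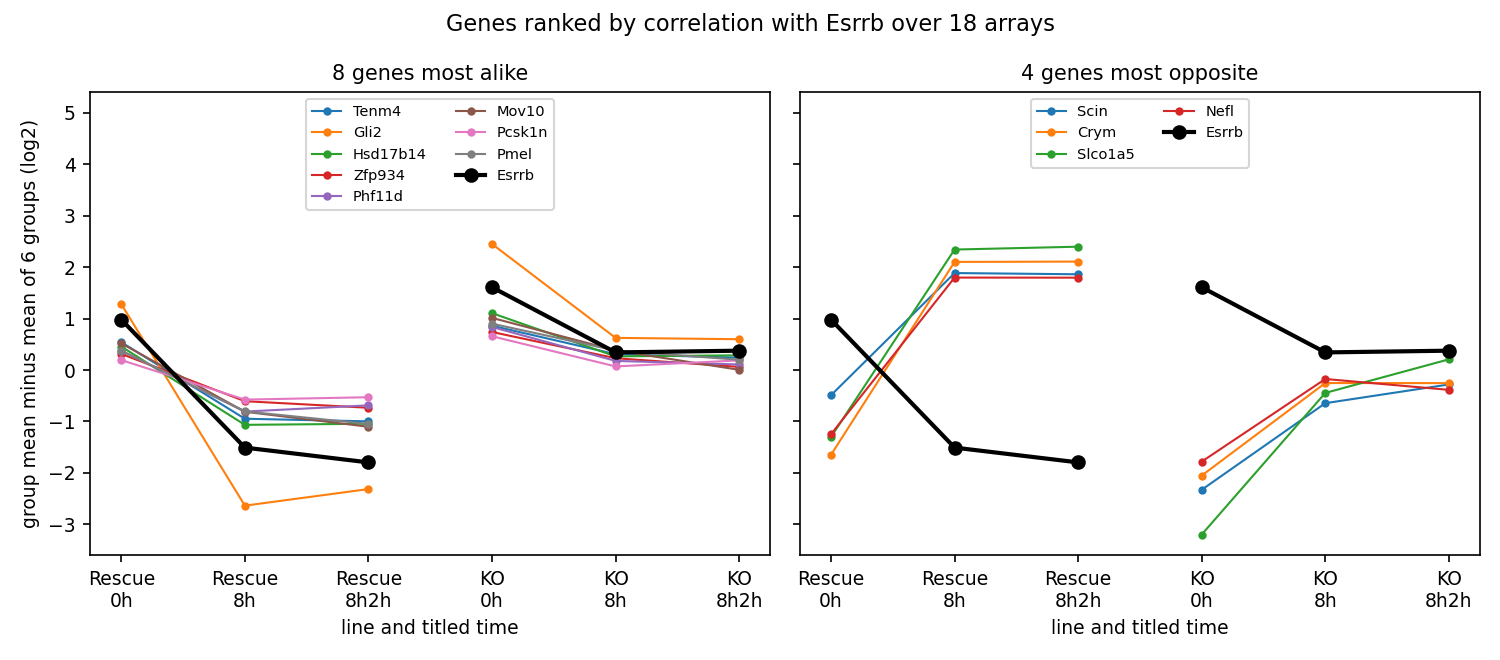
Group means of Esrrb (black), of the 8 genes most alike (left) and of the 4 most opposite (right), each minus its own mean over the 6 groups (log2), with the Rescue-labelled and KO-labelled groups drawn as separate lines. Esrrb and the 8 genes are high at 0h and lower at 8h and 8h2h in both lines, with the lower levels in the Rescue-labelled line; the 4 genes run the other way.

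The genes beside Esrrb in the reference order were read for comparison, protein-coding genes only. Gpatch2l, Ift43 and Tgfb3 precede it, and Vash1, Angel1 and Lrrc74a follow it, the last having no kept probe matched to it. Angel1 moved with Esrrb (r = 0.870 over 18 arrays): it fell at 8h in the Rescue-labelled line (-0.77 ± 0.18, SE, log2; adjusted p = 0.00630) and in the KO-labelled line (-0.58, adjusted p = 0.0369), and was higher on the KO-labelled arrays titled 8h (0.60, adjusted p = 0.0379) and 8h2h (0.85, adjusted p = 0.00500). Those changes were smaller than Esrrb's 2.49, 1.27, 1.85 and 2.17. Ift43, an intraflagellar transport gene, went the other way between the lines, at -0.62 ± 0.17, -0.57 and -0.70, with 3 calls. The immediate neighbours, Gpatch2l before and Vash1 after, had 0 calls in the 9 comparisons of groups, as did Tgfb3. In those comparisons 1.33% to 18.2% of kept probes were called.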

How the data were processed

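RNA of 18 samples was labelled (100 ng each, Low Input Quick Amp kit, per the labels' protocols) and read on 1 array each. Per the file headers, the authors extracted spots with Agilent Feature Extraction 12.0.1.1 in 1 green channel, while the labels name Cy5. The deposited processed signal is a background-subtracted intensity without scaling, and the authors' values deposited beside it were the same intensity for all 62976 spots. The deposited spot flags (above background, saturated, outlier) were also read. Probes were named through RefSeq transcripts. The log2 signal minus each array's 75th percentile over non-control probes was computed from the authors' intensities. Probes well above background on all 3 arrays of a group were kept (34061; outlier spots left out). A model of the 6 group means was fitted to the 18 arrays with limma 3.58.1 (R 4.3.3), so each SE pools 6 groups (12 residual degrees of freedom), two-sided, Benjamini-Hochberg over kept probes, called below 0.05. A list gene was read from its brightest probe. Named genes were Esrrb, its receptor family, up to 4 called members per list and comparison with the largest change, and the 8 most alike and 4 most opposite genes, leaving out clone names. Cell type markers and, after their values were seen, neighbours on the chromosome were added. The gene and the lists were chosen with earlier results of these data known. On data simulated for the Rescue-labelled 8h and 0h arrays, the procedure was tested: it recovered 41 of 50 changes of -2 and 22 of 50 of 1, with 8 false calls. Of 45 same-slide array pairs, 29 had deviations correlated over r 0.1 (median 0.14), so the slide was fitted as a replicate block. The number of arrays limits the precision.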

Additional observations from a re-analysis of the deposited data

Results flagged for a closer look

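Both genes below were marked because the lines differed in their change from 0h to 8h, by an interaction term in limma. Gbx2 rose more in the KO-labelled line, by 1.59 ± 0.34 (SE, log2; adjusted p = 0.0428). Kit gave -2.43 ± 0.48 (adjusted p = 0.0274): it fell in the KO-labelled line (-1.58, adjusted p = 0.00453) and gave 0.85 in the Rescue-labelled line (adjusted p = 0.101).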

How the results depend on the processing

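The difference between the lines at 8h and 8h2h and the falls of Esrrb in the Rescue-labelled line kept their direction and call in all 18 fits that left out 1 array and in all 12 other fits (background, scaling, filter, replicate block, variance prior, arrays fitted, value table). Many of these fits could not move the differences. Changing the filter, replicate block, variance prior, arrays fitted or value table left each Esrrb difference as it was. The value table held the same intensities, so its fit repeated the main one. Leaving out an array outside the groups compared also left the difference unchanged. Within single slides, the KO-labelled excess at 8h2h was 1.51 on slide b and the Rescue-labelled fall to 8h was -3.02 on slide c. The difference at 0h passed with normexp correction alone (0.80, adjusted p = 0.0482). The KO-labelled falls did not pass without scaling (-0.97 to 8h and -0.71 to 8h2h), nor the fall to 8h2h with only the arrays compared (-1.23). Leaving out 1 array at a time gave -1.50 to -0.86 for that fall, -0.23 to 0.41 for the KO-labelled change from 8h to 8h2h, 0.99 to 1.36 for the line difference in the change to 8h, 1.28 to 1.92 for that to 8h2h and 0.056 to 0.70 for that from 8h to 8h2h. The KO-labelled change from 8h to 8h2h, not called anywhere, was -0.075 with the median of kept probes. The line difference in the change to 8h2h passed with quantile normalization (1.75) and with the percentile over kept probes (1.67), the latter chosen after seeing the data. The replicate block left every Esrrb difference as it was, with an SE of 0.24 (0.34 between the lines in a change), and changed no Esrrb call. The cause of these shifts was not tested.

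Counts over all probes depend on the scaling, the filter and the arrays fitted. Between the lines at 8h2h, 4723 probes were called, 18266 with no filter on dim probes (15406 higher and 2860 lower) and 1585 with only the arrays compared. At 8h 4366 were called, 7606 with only the arrays compared and 1464 without scaling. From 8h to 8h2h, 453 were called in the Rescue-labelled line (95 to 2190 over the alternatives) and 1350 in the KO-labelled line (241 to 2455). From 0h to 8h2h it was 4036 (2201 to 6846) and 4985 (1604 to 6471). The line differences in a change gave 294 (49 to 970) to 8h, 15 (0 to 319) from 8h to 8h2h and 236 (42 to 740) to 8h2h. Without scaling, 1170 probes in place of 3554 were called between the lines at 0h, 2933 in place of 6205 from 0h to 8h in the Rescue-labelled line and 2694 in place of 5335 in the KO-labelled line. The higher share of calls moved from 48.7% to 83.4% and from 54.2% to 83.0% in these last comparisons, from 52.8% to 92.1% and from 53.8% to 97.3% from 0h to 8h2h in the lines labelled Rescue and KO, and from 46.3% to 72.8% between the lines at 8h2h. Without scaling the median of all kept probes shifted by 0.31 at 8h and by 0.54 from 0h to 8h2h in the KO-labelled line. Without the high-background array 6491 probes differed between the lines at 0h and 9233 changed at 8h in the Rescue-labelled line. A planned test of Esrrb probes against each other was not run, since there was 1 probe.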
